A study of Mus musculus with 12 samples.

Results

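To ask whether regulatory T cells (Treg) without Ikaros respond to stimulation through the T cell receptor and CD28 as wild-type (WT) Treg do, the stimulation response of Treg from Ikzf1 conditional knockout (cKO) mice was set against that of WT Treg. This difference of 2 differences is the interaction of genotype and stimulation. It was measured by RNA sequencing in all 12 libraries of the series, 3 in each of 4 groups, and it was tested for the 13318 of 36222 genes that reached a mean of 5 TPM (transcripts per 1000000) or more in their highest group. WT animals carried the Foxp3-YFP-Cre allele alone, and cKO animals carried this allele together with floxed Ikzf1, so the Cre is shared by all groups and deletes Ikzf1 in cells that express Foxp3, while other cells keep it. YFP+ Treg were sorted from CD4+ cells of individual mice (the labels give the spleen, and the methods of the study name spleen and lymph nodes), and RNA was taken either directly (ex vivo) or after 4 h of culture with plate-bound antibodies to CD3 and to CD28 at 1 µg/ml (stimulated). No group was cultured without the antibodies, so the effects of culture and of receptor signals cannot be told apart in either response.

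Treg are the CD4+ T cells that hold back immune responses, and their identity rests on the transcription factor Foxp3. Ikaros, the product of Ikzf1, is a zinc finger DNA-binding protein of lymphocytes that recruits chromatin remodelling complexes such as NuRD and is best known for repressing genes. Signals from the T cell receptor and CD28 act through calcium and NFAT, MAP kinases and AP-1, and NF-kB. Interferons act through JAK kinases and STAT proteins, which bind GAS and ISRE elements in promoters, and SOCS1 ends that signal.

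The libraries held 8208659 to 20247649 reads assigned to genes. A single gene model, Gm10800, took 17.7% to 55.9% of the TPM. The third library of stimulated cKO Treg had the fewest reads, the highest share of Gm10800 and the lowest scaling factor (0.741), and without it the interaction had 109 calls, 67 above 0 and 42 below 0. The third library of WT ex vivo was the only 1 of the 12 with Xist, the RNA of the inactive X chromosome in females (179 TPM, against 0.624 to 1.36 in the others), and without it there were 66 calls, 32 above 0 and 34 below 0. The values below are scaled TPM, that is TPM rescaled to 1000000 over the 13318 genes and then adjusted by TMM, a trimmed mean of the log ratios between libraries, which makes libraries comparable relative to the bulk of these genes. Of 8 Treg lineage markers, 1 (Nrp1) was called in the interaction, and their summed level was 2061 to 2326 scaled TPM in WT ex vivo and 2149 to 2401 in cKO ex vivo, and 1330 to 1459 and 1334 to 1840 after stimulation. The summed level of the 10 B cell markers was higher in cKO (120 to 136 scaled TPM ex vivo and 95.3 to 103 after stimulation) than in WT (59.3 to 74.8 and 50.5 to 60.8). Of 3 B cell, 2 myeloid and 2 CD8 T and NK cell markers that were tested, 0 were called in the interaction. Their part in the results below was not tested.

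Ikzf1 (ENSMUSG00000018654, the deleted gene) was lower in every cKO library than in every WT library of the same condition. It stood at 119, 108 and 118 scaled TPM in WT ex vivo and at 44.0, 34.5 and 40.1 in cKO ex vivo, where the cKO mean was 34.4% of WT. After stimulation it stood at 69.6, 74.3 and 72.0 in WT and at 31.3, 31.5 and 24.3 in cKO, 40.3% of WT. An exact two-sided permutation test gave p = 0.1 in both conditions, the smallest value that 3 libraries against 3 allow. The difference between its own responses did not pass the test (0.23, SE 0.16, adjusted p 0.540).

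A total of 148 genes, 1.11% of those tested, were called in the interaction at an adjusted p under 0.05, and 69 of them by more than 2-fold. The interaction is a log2 difference: above 0, the response of cKO Treg was higher than that of WT Treg, whether by a larger rise, a smaller fall or a turn from fall to rise. It was above 0 for 60 genes (0.451% of those tested) and below 0 for 88 (0.661%), and 125 of the 148 were protein coding. The median interaction of all tested genes was -0.04. In the same fit stimulation changed 4254 genes in WT (31.9%, with 1686 or 12.7% up and 2568 or 19.3% down). In cKO it changed 5829 (43.8%, with 2299 or 17.3% up and 3530 or 26.5% down). In a bulk sample, fewer cells that express a gene and less RNA per cell cannot be told apart.

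**Figure D1:**
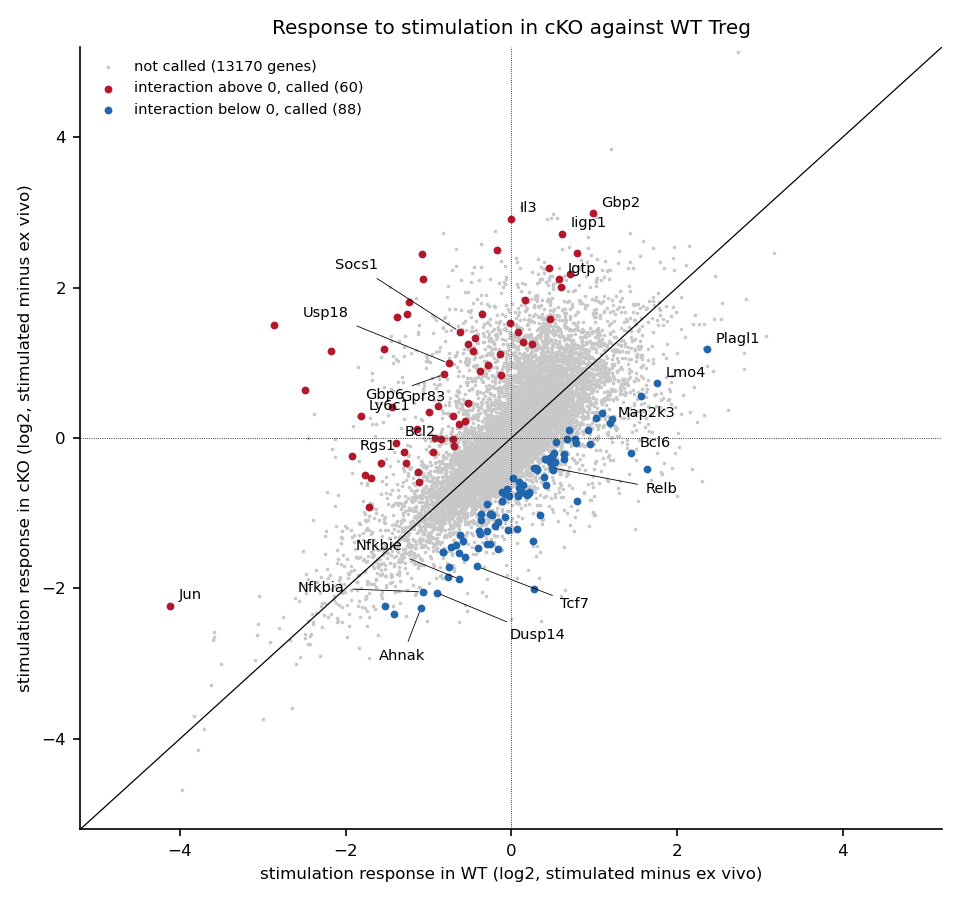
Each point is 1 of the 13318 tested genes, with its response to stimulation in WT Treg on the x axis and in cKO Treg on the y axis (both log2, stimulated minus ex vivo), and the line marks equal responses. The 60 genes in red lie above the line and the 88 in blue below it. Gbp2 and Iigp1 rose in both genotypes and further in cKO, while Bcl6 rose in WT alone and Jun fell less in cKO.

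Sorted by their responses, 13 of the 148 genes had a larger rise in cKO, 39 a larger fall, 9 a smaller rise and 16 a smaller fall. The responses of the remaining 71 genes had opposite signs, and for 23 of them both passed their own test. Of the genes above 0, 50 were higher in cKO than in WT after stimulation (438 or 3.29% of all tested genes were, of 6.94% called in either direction) and 13 were lower in cKO ex vivo (1.67% of tested genes, of 5.29% in either direction). Of the genes below 0, 51 were higher in cKO ex vivo (3.62% of tested genes) and 43 were lower in cKO after stimulation (3.65%). The interaction is also the genotype difference after stimulation minus that ex vivo. These counts therefore follow in part from the choice of the genes, and they carry no test.

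The number and the direction of calls depended on the scale. With the TPM as deposited, for which the median interaction of all genes shifts by -0.48 on the log2 scale, 67 genes were called, 6 above 0 and 61 below. With a filter of 10 TPM there were 336 calls, 180 above and 156 below, and with a filter of 1 TPM there were 0 in limma (2403 genes at an unadjusted p under 0.05). Every direction below is therefore relative to the bulk of genes at 5 TPM or more, and each of the 148 genes kept the sign of its interaction in all 28 alternative fits that tested it.

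Of 40 lists of genes by function, the highest median interaction was that of the interferon gamma induced GTPases, the guanylate-binding proteins (Gbp) and immunity-related GTPases (such as Iigp1, Igtp and Tgtp1) that defend cells against intracellular microbes. All 17 tested members had an interaction above 0, where 45.5% of all tested genes did. Of the 17, 9 were called, where 0.451% of all tested genes were called above 0. The median response of the list was 0.17 in WT and 1.58 in cKO, with a median interaction of 1.18 against -0.04 over all tested genes. Stimulation raised 7 members and lowered 4 in WT, where it raised 12.7% and lowered 19.3% of all tested genes. In cKO it raised 14 and lowered 1, against 17.3% and 26.5%. The median stayed above 0 in all alternatives, but with the TPM as deposited 0 members were called (median 0.67), and leaving out 1 of the 12 libraries at a time (12 leave-one-out fits) left 5 to 8 calls. Many of these genes have near-identical copies, Tgtp1 and Tgtp2 among them, between which reads may have been divided or lost.

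Gbp2 (ENSMUSG00000028270, chromosome 3, 142283566 to 142300972 in mm9) stood at 34.5, 34.9 and 45.8 scaled TPM in WT ex vivo and at 37.1, 37.9 and 39.0 in cKO ex vivo. After stimulation it reached 88.3, 49.9 and 100.5 in WT and 339, 307 and 282 in cKO. The genotypes overlapped ex vivo, and after stimulation every cKO library was above every WT library. The ratio of group means was 2.07 in WT and 8.14 in cKO, and the interaction was 2.00 (SE 0.30, adjusted p 0.0137).

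Iigp1 (ENSMUSG00000054072) stood at 16.9, 22.1 and 24.3 in WT ex vivo, 35.5, 23.6 and 40.9 in stimulated WT, 22.97, 26.1 and 31.7 in cKO ex vivo and 188, 201 and 157 in stimulated cKO Treg. Its mean rose 1.58-fold in WT and 6.76-fold in cKO (interaction 2.10, SE 0.29, adjusted p 0.0121). Gbp6 went in opposite directions, from 18.5, 20.4 and 18.1 ex vivo to 12.1, 7.67 and 11.99 in WT and from 14.2, 18.1 and 17.0 to 32.2, 30.5 and 28.0 in cKO. Every stimulated WT library was below every WT library ex vivo, and every stimulated cKO library was above every cKO library ex vivo (1.66, adjusted p 0.0121). Of the remaining called members, Igtp (1.53, adjusted p 0.0132) and Tgtp1 (1.48, adjusted p 0.0132) had the larger rise in cKO and, like Gbp2, Iigp1 and Gbp6, were called whichever library was left out. Gbp5 (1.40, adjusted p 0.0150) was called in 11 of 12 leave-one-out fits and missed the threshold without the library cKO stimulated 1 (adjusted p 0.05001). Gm4951, Gbp10 and Tgtp2 had interactions of 1.66, 1.33 and 1.11, and the first 2 of these were called in 6 and 2 of 12 leave-one-out fits, with adjusted p up to 0.0747 (without cKO stimulated 1) and 0.108 (without cKO ex vivo 1). Irgm2 rose in both genotypes (1.96 and 2.54) and its interaction was not called (0.58, adjusted p 0.156).

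Since 14 members of this family rose together in cKO, the promoters of 3 of them and of Socs1 are shown, with the windows running from 250 bases before to 50 bases after the start of the gene (RefSeq, GRCm38.p6), 5′ to 3′ on the strand of the gene. These 4 genes were chosen after their values were seen. Capitals mark every match on either strand to GAAA, any 2 bases and again GAAA, a core of the interferon-stimulated response element (ISRE), and to TTCNNNGAA, the core of a STAT-binding GAS element.
Gbp2 (chr3:142620413-142620712, plus strand): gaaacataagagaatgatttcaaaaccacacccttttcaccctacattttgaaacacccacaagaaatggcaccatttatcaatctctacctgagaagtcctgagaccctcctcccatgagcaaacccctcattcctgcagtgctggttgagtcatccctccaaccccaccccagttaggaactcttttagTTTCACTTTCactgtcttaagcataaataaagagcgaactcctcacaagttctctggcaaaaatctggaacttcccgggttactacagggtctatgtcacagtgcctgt
Igtp (chr11:58199306-58199605, plus strand): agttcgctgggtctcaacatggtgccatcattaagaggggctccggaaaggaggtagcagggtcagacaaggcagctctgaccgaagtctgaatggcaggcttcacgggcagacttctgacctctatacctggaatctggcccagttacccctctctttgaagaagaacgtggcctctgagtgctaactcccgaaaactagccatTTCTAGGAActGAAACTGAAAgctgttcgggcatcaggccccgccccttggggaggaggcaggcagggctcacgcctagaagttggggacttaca
Tgtp1 (chr11:48992197-48992496, minus strand): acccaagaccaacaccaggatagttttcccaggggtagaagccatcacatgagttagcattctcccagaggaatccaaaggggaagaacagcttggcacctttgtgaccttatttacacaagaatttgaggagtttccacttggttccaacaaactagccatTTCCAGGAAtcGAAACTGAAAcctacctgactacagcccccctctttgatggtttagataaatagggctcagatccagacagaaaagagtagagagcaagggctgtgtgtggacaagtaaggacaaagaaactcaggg
Socs1 (chr16:10785487-10785786, minus strand): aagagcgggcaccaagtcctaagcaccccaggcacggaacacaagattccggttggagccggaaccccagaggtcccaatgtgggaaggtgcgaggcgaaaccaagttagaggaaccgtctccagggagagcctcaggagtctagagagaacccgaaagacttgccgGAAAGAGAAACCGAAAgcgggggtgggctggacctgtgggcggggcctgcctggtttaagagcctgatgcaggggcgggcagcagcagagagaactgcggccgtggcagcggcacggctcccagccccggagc
In Igtp and Tgtp1 a GAS match lay just upstream of an ISRE-like match, at -45 and -34 in Igtp and at -88 and -77 in Tgtp1, counted from the start to the first base of each match. Gbp2 held 1 ISRE-like match (-59), and Socs1 held 2 that overlap each other. The ISRE-like letters were in 90% of the 10 GTPase promoters with an entry and in 26.7% of the 30 promoters of genes called above 0. They were in 1.72% of the 58 called below 0, 3.14% of the 7061 of tested genes and 3.49% of all 27025 promoters. The GAS letters were in 60%, 26.7%, 6.9%, 7.1% and 8.47% of the same sets, in that order. The first 2 sets overlap, since called GTPase genes are also among the genes called above 0. The GTPase list was made up of genes that interferon induces, so its shares describe that list. A match of letters is a description and no binding was measured in these libraries.

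Type I interferon stimulated genes are antiviral genes induced by interferon alpha and beta. Of 35 tested members, stimulation lowered 28 and raised 1 in WT, where it lowered 19.3% and raised 12.7% of all tested genes. In cKO it lowered 13 and raised 5, against 26.5% and 17.3%. The interaction was above 0 for 31 of the 35 (45.5% of all tested genes) and was called for 8 (median 0.51). All 8 were above 0, where 0.451% of all tested genes were called. Over leave-one-out fits the number of called members ranged from 1 to 8, and it was 0 with the TPM as deposited. After stimulation 17 of the 35 were higher in cKO than in WT and 1 was lower (3.29% and 3.65% of all tested genes). Ex vivo 3 were higher and 5 lower (3.62% and 1.67%).

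Usp18, which removes ISG15 from proteins and dampens interferon receptor signals, stood at 17.6, 20.3 and 23.1 scaled TPM in WT ex vivo and 12.2, 11.0 and 11.6 after stimulation, and in cKO at 9.73, 15.4 and 12.5 and 29.8, 29.0 and 19.3. It fell in WT and rose in cKO (-0.76 and 0.99, interaction 1.75, adjusted p 0.0132), and was called in all 12 leave-one-out fits. Rtp4 fell in WT from 18.7, 21.1 and 25.3 to 7.35, 8.06 and 9.16, and stood at 20.8, 23.5 and 17.4 and 18.4, 16.7 and 18.8 in cKO (1.12, adjusted p 0.0192, up to 0.0600 without cKO stimulated 1 and called in 8 of 12 leave-one-out fits). Dtx3l and Parp9, which form an ubiquitin ligase complex, and Parp14 had interactions of 0.99, 0.78 and 0.96 (adjusted p 0.0205, 0.0211 and 0.0278). For Dtx3l the responses were of opposite sign and both called, and its interaction was called in 7 of 12 leave-one-out fits (adjusted p up to 0.0693, without cKO ex vivo 3). Zbp1, a sensor of nucleic acid, fell in WT (-1.14) and had an interaction of 1.25 (adjusted p 0.0496) that was called in 0 of the 12 leave-one-out fits (up to 0.136 without cKO ex vivo 3). Isg15 and Ifitm2 had values below 0, -0.40 and -0.69 (adjusted p 0.582 and 0.123), so not all of these genes stood on the same side.

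Socs1, the inhibitor of JAK kinases whose promoter is shown above, had 71.5, 69.8 and 103 scaled TPM in WT ex vivo and 64.0, 40.2 and 53.4 in stimulated WT Treg. In cKO it went from 98.3, 74.7 and 93.4 to 290.3, 249.5 and 184. All 3 stimulated cKO libraries were above the other 9. The interaction was 2.04 (SE 0.31, adjusted p 0.0137) and was called whichever library was left out. The SOCS, STAT and JAK list had 19 tested genes. Of these, 1 was called above 0 (Socs1) and 1 below 0 (0.451% and 0.661% of all tested genes). The latter was Socs5, another member of the SOCS family, which rose from 8.91, 9.33 and 8.23 to 18.1, 20.6 and 18.1 in WT and from 12.6, 11.9 and 11.5 to 13.8, 14.7 and 15.5 in cKO (-0.75, adjusted p 0.0150). Stat2, a transcription factor downstream of interferon receptors, had a called rise in cKO (0.70) and not in WT (0.04). Its interaction was 0.66 and was not called (adjusted p 0.0675).

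**Figure D2:**
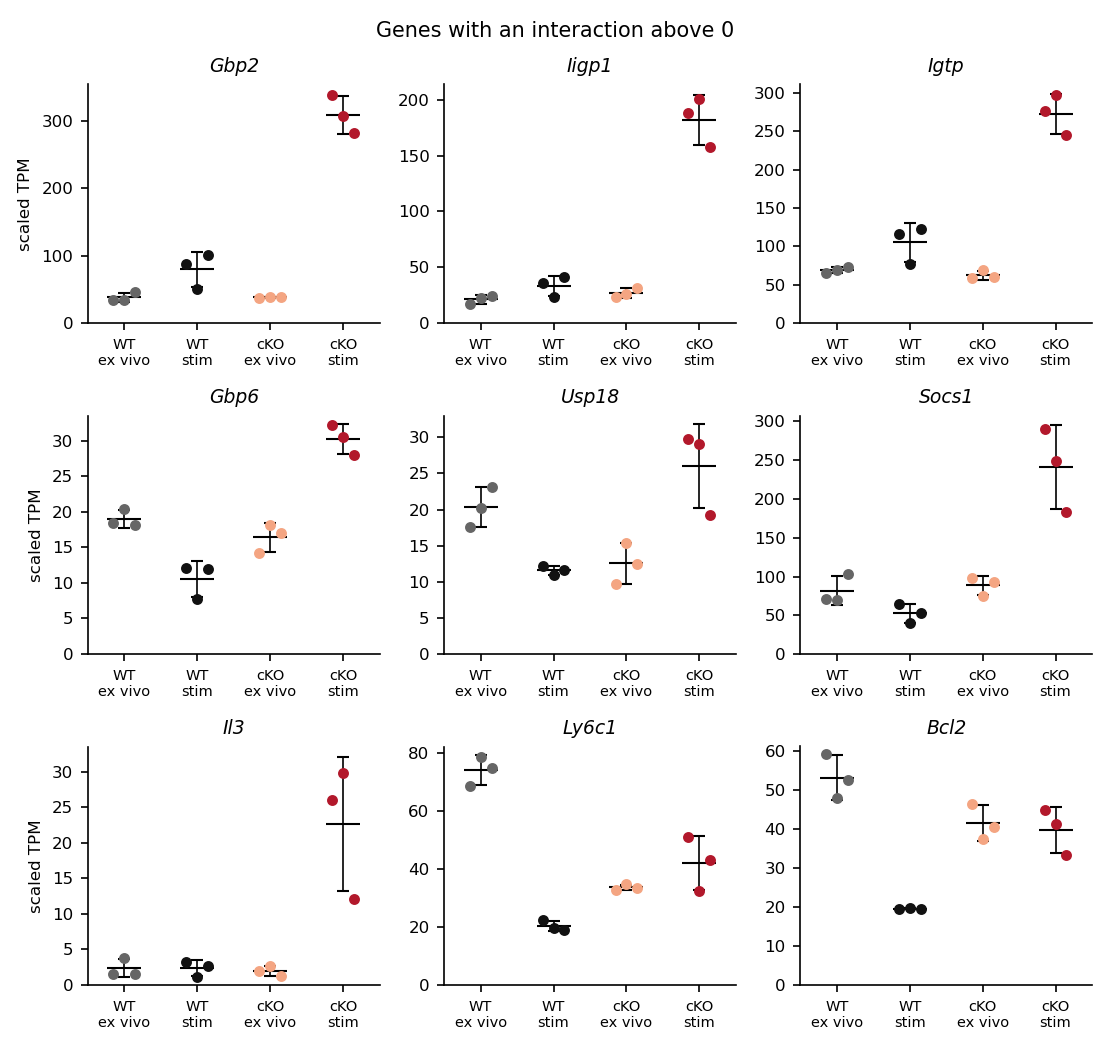
Scaled TPM of 9 genes with an interaction above 0 in each of the 12 libraries, by group. Points are libraries, bars are the mean and the SD of 3, and each panel starts at 0. Stimulated cKO libraries stood above stimulated WT libraries in all 9 panels. Socs1 and Il3 rose in cKO and did not pass the test in WT, and Ly6c1 and Bcl2 fell in WT and did not pass it in cKO.

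Cytokine genes are commonly held silent in Treg, and Ikaros is known to restrain Il2 and Ifng in other T cells. Of 37 listed genes of cytokines and chemokines, 25 passed the filter and were tested. Of these 25, 2 were called in the interaction, both above 0, where 0.451% of all tested genes were. The median was 0.14 (0.07 to 0.26 when 1 library was left out). It lay 0.18 above the median of all tested genes, and 0.19 above it with the TPM as deposited. Il3, a growth factor for myeloid cells, was at 1.61, 3.80 and 1.59 scaled TPM in WT ex vivo, 3.21, 1.07 and 2.74 in stimulated WT, 1.95, 2.74 and 1.30 in cKO ex vivo and 26.1, 29.8 and 12.1 in stimulated cKO Treg. Only the stimulated cKO libraries stood apart, with 6 or more reads behind each value in all libraries. Il3 passed the filter of 5 TPM through that group alone, which favours an interaction above 0. Its interaction was 2.92 (SE 0.56, adjusted p 0.0390), the highest of any protein-coding gene other than gene models with a Gm number, and it was lost without the library cKO stimulated 1 (adjusted p 0.110) and called in 2 of 12 leave-one-out fits. Lta, the gene of lymphotoxin alpha, fell from 50.5, 51.6 and 68.9 to 16.6, 15.9 and 17.7 in WT and from 47.1, 54.8 and 59.5 to 46.4, 35.4 and 29.9 in cKO (1.16, adjusted p 0.0443, up to 0.122 without cKO ex vivo 1 and called in 1 of 12 leave-one-out fits).

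Il2 followed the pattern of Il3 at a lower level, with 0.354, 1.11 and 1.68 in WT ex vivo, 2.12, 0.686 and 1.86 in stimulated WT, 0.870, 1.13 and 1.21 in cKO ex vivo and 12.3, 11.2 and 6.63 in stimulated cKO Treg. Its rise was called in cKO (2.38, adjusted p 0.00227) and not in WT (0.33, adjusted p 0.628), but the interaction did not pass the test (2.05, SE 0.66, adjusted p 0.174). Ccl3, Csf2, Il13 and Ccl1 also had a called rise in cKO alone, with interactions of 2.26, 1.58, 1.54 and 1.30, and none of these 4 was called in the interaction (adjusted p 0.115 to 0.202). Ifng was higher in cKO in both conditions and fell in both genotypes, from 18.4, 26.9 and 25.1 to 4.79, 2.88 and 4.88 in WT and from 55.6, 71.7 and 95.8 to 41.4, 25.1 and 22.8 in cKO, with no call in the interaction (0.94, adjusted p 0.279). Tnf was at 39.7, 44.1 and 51.4 and 38.5, 39.7 and 43.6 in WT, and at 77.5, 84.5 and 98.3 and 75.5, 65.7 and 54.7 in cKO (-0.27, adjusted p 0.551). The higher level of Ifng and Tnf in cKO was called ex vivo as well, and that of Il3 after stimulation alone.

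The promoters of Il3 and Il2, and of Ly6c1 described next, are those of the 3 named genes with the highest interactions that have an entry in the RefSeq windows. Capitals mark GGGAA, the core sequence bound by Ikaros, on either strand.
Il3 (chr11:54267230-54267529, minus strand): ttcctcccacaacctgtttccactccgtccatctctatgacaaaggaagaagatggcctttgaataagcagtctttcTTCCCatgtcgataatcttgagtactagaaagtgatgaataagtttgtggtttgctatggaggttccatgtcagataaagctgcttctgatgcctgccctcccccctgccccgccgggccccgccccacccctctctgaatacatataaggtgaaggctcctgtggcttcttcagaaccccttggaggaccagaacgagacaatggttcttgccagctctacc
Il2 (chr3:37125905-37126204, minus strand): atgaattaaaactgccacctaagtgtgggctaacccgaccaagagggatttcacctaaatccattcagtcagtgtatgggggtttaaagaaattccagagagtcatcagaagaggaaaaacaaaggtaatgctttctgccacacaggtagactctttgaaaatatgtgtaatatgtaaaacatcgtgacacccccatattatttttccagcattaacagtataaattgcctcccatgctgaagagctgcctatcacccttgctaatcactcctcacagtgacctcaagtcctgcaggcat
Ly6c1 (chr15:75048788-75049087, minus strand): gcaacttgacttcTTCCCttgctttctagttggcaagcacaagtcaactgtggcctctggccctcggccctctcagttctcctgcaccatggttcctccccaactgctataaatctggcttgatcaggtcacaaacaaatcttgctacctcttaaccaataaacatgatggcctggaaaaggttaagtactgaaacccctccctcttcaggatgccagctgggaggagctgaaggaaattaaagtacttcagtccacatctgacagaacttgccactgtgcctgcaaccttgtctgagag
The core was present once in Il3 (at -173 from the start) and once in Ly6c1 (at -237) and did not occur in the window of Il2. It was in 70% of the promoters of genes called above 0, 70.7% of those called below 0, 64% of those tested and 62.3% of all promoters.

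Several genes of Treg and of naive T cells were kept up in stimulated cKO Treg while they fell in WT. Ly6c1, a surface protein of naive and memory T cells with a close copy in Ly6c2, fell in WT from 68.7, 78.8 and 75.0 scaled TPM to 22.4, 19.6 and 19.0. In cKO it was lower ex vivo, at 32.8, 34.7 and 33.5, and stood at 51.1, 32.4 and 43.0 after stimulation. The order of the genotypes was thus reversed between the conditions, with no overlap in either condition. Its interaction was 2.11 (SE 0.20, adjusted p 0.00532), the lowest adjusted p of all 148, and it was called with the TPM as deposited too (adjusted p 0.0477).

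Gpr83, a receptor highly expressed in Treg, fell in WT from 25.2, 21.7 and 24.3 to 8.66, 7.37 and 8.26, and stood at 20.3, 22.4 and 24.8 and 39.96, 30.1 and 22.6 in cKO (1.85, adjusted p 0.0121). Rgs1, a brake on chemokine receptor signals, fell from 156, 172 and 256 to 48.4, 50.5 and 48.9 in WT and had 123, 99.2 and 141 and 105, 109.9 and 90.7 in cKO (1.69, adjusted p 0.0132). Bcl2, which keeps T cells from apoptosis, fell in WT to 0.368 of its ex vivo mean (from 59.1, 47.9 and 52.5 to 19.5, 19.7 and 19.5) with no call in cKO (from 46.4, 37.5 and 40.5 to 44.8, 41.4 and 33.3, 1.33, adjusted p 0.0121). For all 3 genes no difference between genotypes was called ex vivo, every stimulated cKO library was above every stimulated WT library, and each was called in all 12 leave-one-out fits. Foxp3 itself went from 197, 163 and 165 to 111, 92.6 and 129 in WT, a called fall (-0.66, adjusted p 0.0145), and from 163, 153 and 165 to 251, 248 and 159.7 in cKO (0.42, adjusted p 0.0734). Its interaction of 1.08 (SE 0.25) missed the threshold (adjusted p 0.0677). Treml2, a receptor of the TREM family, and Serpina3g, a protease inhibitor, fell in WT (-1.77 and -1.57), and Treml2 fell less in cKO (-0.50), with interactions of 1.27 and 1.24 (adjusted p 0.0121 and 0.0135).

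The Treg identity list had 24 genes and a median interaction of 0.00 (-0.08 to 0.11 when 1 library was left out). Of these, 2 were called above 0 (Gpr83 and Rgs1) and 2 below 0 (0.451% and 0.661% of all tested genes). The genes below 0 were Nrp1, a receptor of thymus-derived Treg, which fell from 67.1, 66.3 and 65.2 to 40.8, 42.4 and 45.1 in WT and from 91.4, 70.0 and 89.0 to 32.5, 34.1 and 33.8 in cKO (-0.66, adjusted p 0.0498), and the zinc finger gene Plagl1. Plagl1 rose in both genotypes, from 30.1, 24.8 and 17.9 to 117, 146 and 119.6 in WT and from a higher ex vivo level of 64.7, 62.5 and 56.9 to 135, 163 and 125 in cKO (-1.19, adjusted p 0.0466). Of 12 leave-one-out fits, 1 called Nrp1 (adjusted p up to 0.141, without cKO ex vivo 3) and 2 called Plagl1 (up to 0.125, without cKO ex vivo 1). Il2ra and Ctla4, which encode the alpha chain of the IL-2 receptor and a coinhibitory receptor, had interactions of 0.80 and 0.47 and were not called (adjusted p 0.108 and 0.235).

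Jun, a subunit of AP-1, was at high levels ex vivo and fell in both genotypes. It had 460.4, 502 and 791 scaled TPM in WT ex vivo and 32.5, 32.5 and 30.4 in stimulated WT, against 194, 203 and 324 and 49.96, 50.2 and 46.9 in cKO. The cKO libraries were lower than WT ex vivo and higher after stimulation, without overlap. The fall was -4.12 in WT and -2.23 in cKO (interaction 1.89, SE 0.30, adjusted p 0.0172), and was called in 8 of 12 leave-one-out fits (adjusted p up to 0.0529, without cKO ex vivo 1). Jun was the only call among 19 AP-1 and immediate early genes, where 1.11% of all tested genes were called. Fos, Junb and Jund fell in both genotypes (WT responses -3.50, -3.07 and -2.76) and had interactions of 0.50, 0.45 and 0.38 (adjusted p 0.385 to 0.610). Egr2 and Egr3, NFAT targets that are markers of T cell receptor signals, rose in both genotypes, by 1.48 and 1.71 in WT and by 1.31 and 1.42 in cKO. Stimulation lowered 10 of the 19 and raised 5 in each genotype. Over all tested genes it lowered 19.3% and raised 12.7% in WT, and lowered 26.5% and raised 17.3% in cKO.

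Other genes with a larger rise in cKO were Mov10, an RNA helicase active against retroviruses, from 17.8, 18.3 and 20.002 to 19.6, 17.7 and 22.6 in WT and from 18.05, 17.9 and 17.8 to 53.0, 54.4 and 41.1 in cKO (1.32, adjusted p 0.0121), and Itgb3, integrin beta 3 (1.14, adjusted p 0.0192, up to 0.0637 without cKO ex vivo 3 and called in 9 of 12 leave-one-out fits). Gpld1, a phospholipase that cleaves GPI anchors, was higher in cKO in both conditions and rose in cKO alone (1.26, adjusted p 0.0132). Pik3r5, a regulatory subunit of PI3K gamma, fell less in cKO (0.93, adjusted p 0.0164, up to 0.0593 without cKO ex vivo 3 and called in 11 of 12 leave-one-out fits). Znrf3, a ubiquitin ligase that removes Wnt receptors, fell in WT alone (0.59, adjusted p 0.0496) and was called in 0 of 12 leave-one-out fits (up to 0.136 without cKO ex vivo 3). All 8 tested Gimap genes, small GTPases of lymphocyte survival, had interactions above 0 (median 0.44), where 45.5% of all tested genes did. In limma 0 of the 8 were called (5 at an unadjusted p under 0.05, and 0 with voom). Their median lay 0.48 above that of all tested genes, and 0.45 above it with the TPM as deposited.

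The genes of NF-kB and of its feedback inhibitors stood on the other side. Of 18 tested, 4 were called in the interaction, all below 0, where 0.661% of all tested genes were called. A value below 0 was found for 17 (median -0.58), while 45.5% of all tested genes were above 0. The median response was 0.06 in WT and -0.48 in cKO. Stimulation raised 6 and lowered 6 of the 18 in WT, where it raised 12.7% and lowered 19.3% of all tested genes. In cKO it raised 3 and lowered 13, against 17.3% and 26.5%. Ex vivo 5 of the 18 were higher in cKO than in WT (3.62% of all tested genes), and after stimulation 2 were lower (3.65%). The median kept its sign in all alternatives, and the number of called members went from 0 to 8 over the leave-one-out fits.

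Nfkbia, which encodes the NF-kB inhibitor IkB alpha and is itself an NF-kB target, was at 566, 549.7 and 665 scaled TPM in WT ex vivo and at 1172, 948 and 1177 in cKO ex vivo. After stimulation it was at 264, 312 and 269.8 in WT and 249.5, 314 and 235 in cKO. The genotypes did not overlap ex vivo and overlapped after stimulation. It fell by more in cKO (-2.05) than in WT (-1.07), with an interaction of -0.98 (SE 0.20, adjusted p 0.0496).

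Nfkbie, the gene of IkB epsilon, had the same order, 71.7, 58.5 and 61.9 in WT ex vivo, 38.3, 44.6 and 40.3 in stimulated WT, 145, 107 and 122 in cKO ex vivo and 29.8, 40.6 and 29.5 in stimulated cKO Treg (-1.25, SE 0.21, adjusted p 0.0192). Tnip1, a partner of the A20 inhibitor, fell in cKO from 147, 109 and 116 to 48.9, 60.2 and 53.9 and had 99.8, 79.6 and 87.4 and 70.0, 86.2 and 76.5 in WT (-0.98, adjusted p 0.0423). Relb, a subunit of the non-canonical pathway, rose in WT from 36.0, 33.6 and 29.6 to 45.4, 50.4 and 44.5 and fell in cKO from 56.9, 45.9 and 46.7 to 33.7, 44.1 and 35.2 (-0.89, adjusted p 0.0428). In 12 leave-one-out fits Nfkbia was called in 2, Nfkbie in 5, Tnip1 in 3 and Relb in 3. The adjusted p was highest for each without the second library of stimulated WT, where it was 0.139 for Nfkbia, 0.0651 for Nfkbie, 0.118 for Tnip1 and 0.121 for Relb. Rel and Nfkb2 had interactions of -0.91 and -0.81 that were not called (adjusted p 0.0744 and 0.143), and Tnfaip3, the gene of A20, fell in both genotypes (-1.74 and -1.94) with an interaction of -0.20 (adjusted p 0.697).

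**Figure D3:**
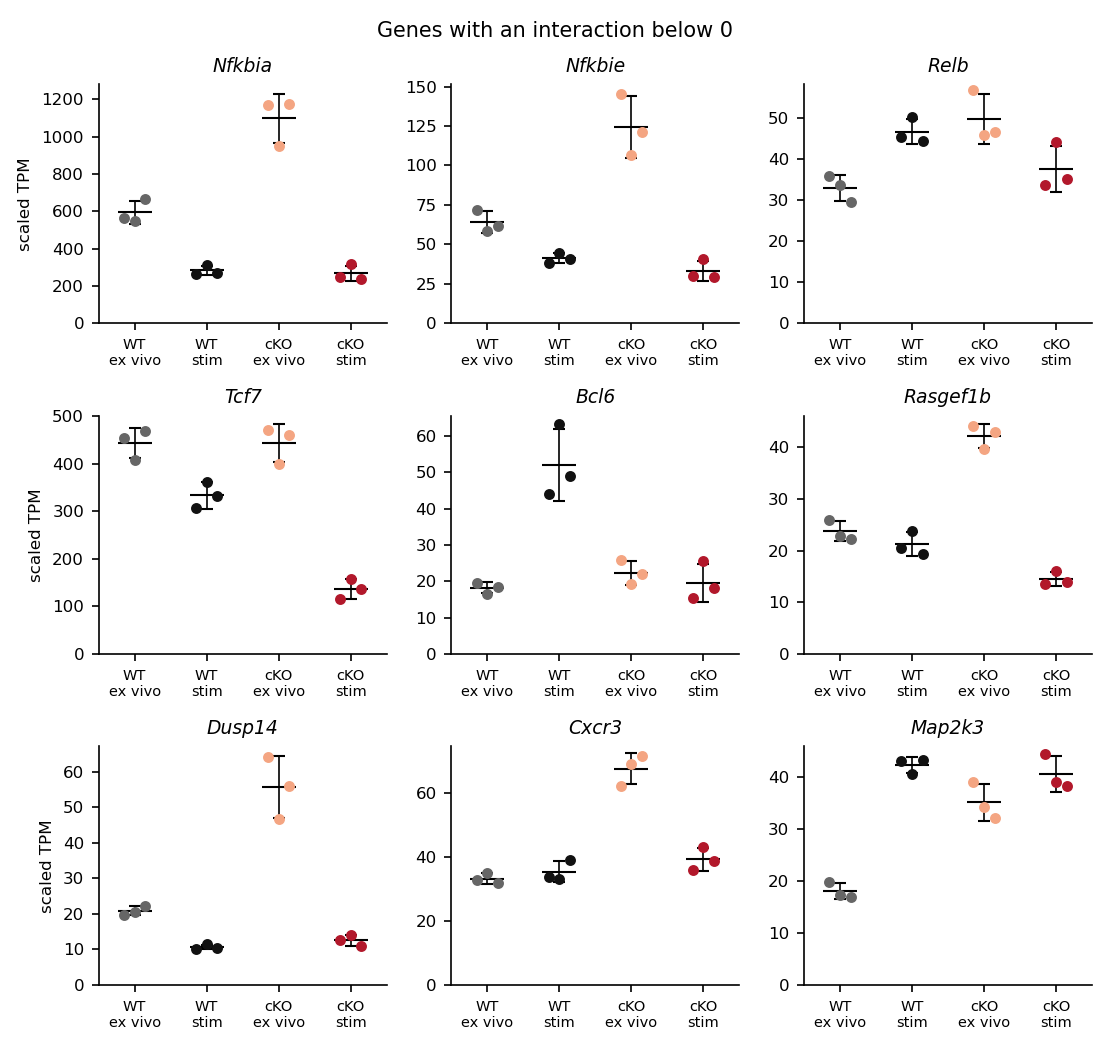
Scaled TPM of 9 genes with an interaction below 0 in each of the 12 libraries, by group. Points are libraries, bars are the mean and the SD of 3, and each panel starts at 0. Nfkbia, Nfkbie, Dusp14, Cxcr3 and Map2k3 stood above WT in every cKO library ex vivo and overlapped WT after stimulation, whereas Tcf7 and Bcl6 overlapped ex vivo and were lower in every cKO library after stimulation. Rasgef1b was higher in every cKO library ex vivo and lower in every one after stimulation.

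Dusp14 and Dusp2, phosphatases that switch off MAP kinases, also fell further in cKO. Dusp14, a negative regulator of T cell receptor signals, stood at 19.7, 20.6 and 22.2 in WT ex vivo and 10.2, 11.5 and 10.4 after stimulation, against 64.2, 46.8 and 56.1 and 12.6, 14.1 and 11.0 in cKO. It was higher in every cKO library ex vivo, and the genotypes overlapped after stimulation (-1.16, SE 0.17, adjusted p 0.0132). Dusp2 fell from 98.7, 107 and 112 to 66.7, 78.6 and 69.1 in WT and from 165, 136 and 132 to 44.2, 54.2 and 44.5 in cKO (-1.01, adjusted p 0.0167, up to 0.0554 without WT stimulated 2 and called in 10 of 12 leave-one-out fits). These were the 2 calls among 15 MAPK and calcineurin feedback inhibitors (median -0.31, which went to -0.12 without the first library of cKO ex vivo, -0.17 without the third of stimulated cKO and -0.20 without the third of WT ex vivo), of which Dusp5 had a value above 0 (0.70, adjusted p 0.256). Map2k3, a kinase that activates p38, rose 2.34-fold in WT, from 19.9, 17.3 and 17.0 to 43.1, 40.6 and 43.4, whereas in cKO it was at 39.1, 34.2 and 32.2 already ex vivo and at 44.5, 39.0 and 38.2 after stimulation (-0.98, adjusted p 0.0121).

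Cdc25b, a phosphatase that activates cyclin-dependent kinases, showed 24.8, 21.4 and 23.4 and 22.3, 19.98 and 23.9 in WT and fell from 35.4, 30.9 and 36.1 to 15.8, 16.7 and 15.4 in cKO (-0.97, adjusted p 0.0121). Of the 30 tested genes of DNA replication and mitosis, 3 had an interaction above 0, where 45.5% of all tested genes did. In limma 0 of the 30 were called (8 at an unadjusted p under 0.05, and 2 with voom), and the median was -0.37. Stimulation lowered 23 of these 30 genes in cKO and 9 in WT (26.5% and 19.3% of all tested genes). The proliferation marker Mki67 had 28.5, 26.6 and 29.3 and 26.1, 15.02 and 29.2 in WT and 53.2, 47.3 and 52.3 and 25.8, 14.2 and 13.7 in cKO, with an interaction of -1.21 that was not called (SE 0.36, adjusted p 0.142). Rbl2, a pocket protein that holds back the cell cycle, was called (-0.55, adjusted p 0.0203, up to 0.0744 without WT ex vivo 3 and called in 3 of 12 leave-one-out fits).

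Bcl6 and Tcf7, transcription factors of other T cell fates, were lower in stimulated cKO Treg than in stimulated WT Treg. Bcl6 (ENSMUSG00000022508, chromosome 16, 23965138 to 23988938 in mm9), the repressor that directs follicular T cells, rose in WT from 19.7, 16.6 and 18.5 scaled TPM to 44.2, 63.2 and 48.9. In cKO it stood at 25.8, 19.3 and 21.9 ex vivo and at 15.3, 25.5 and 18.1 after stimulation. The 3 stimulated WT libraries were above the other 9, and the stimulated cKO libraries overlapped those ex vivo. Its interaction was -1.65 (SE 0.26, adjusted p 0.0164), and it was called in 10 of 12 leave-one-out fits (adjusted p 0.0513 without cKO ex vivo 3).

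Tcf7 (ENSMUSG00000000782, chromosome 11, 52065873 to 52096681), which encodes the Wnt pathway factor TCF1 of naive and memory T cells, overlapped between genotypes ex vivo, at 455, 408 and 468 in WT and 471, 399 and 461 in cKO. After stimulation it stood at 306, 362 and 333 in WT and at 115, 157 and 136 in cKO, less than any other library. The fall was to 0.752 of the ex vivo mean in WT and to 0.306 in cKO (-1.30, SE 0.18, adjusted p 0.0121), and the call held whichever library was left out. Its relative Lef1 had an interaction of -0.43 that was not called (adjusted p 0.135). Rasgef1b, an exchange factor for Ras family GTPases, had 25.9, 22.9 and 22.3 and 20.6, 23.8 and 19.3 in WT and fell from 44.1, 39.7 and 42.9 to 13.5, 15.97 and 14.02 in cKO (-1.33, adjusted p 0.00647), so that cKO was higher ex vivo and lower after stimulation, with no overlap.

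These 3 genes had the lowest interactions of the named genes with an entry among the RefSeq promoter windows, and their sequences are shown with GGGAA in capitals on either strand.
Bcl6 (chr16:23988803-23989102, minus strand): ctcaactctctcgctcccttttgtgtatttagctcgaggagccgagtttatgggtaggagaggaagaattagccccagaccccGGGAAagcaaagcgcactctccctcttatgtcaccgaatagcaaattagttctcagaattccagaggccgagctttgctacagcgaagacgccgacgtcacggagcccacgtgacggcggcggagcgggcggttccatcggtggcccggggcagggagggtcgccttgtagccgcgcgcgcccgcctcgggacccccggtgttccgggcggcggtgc
Tcf7 (chr11:52282965-52283264, minus strand): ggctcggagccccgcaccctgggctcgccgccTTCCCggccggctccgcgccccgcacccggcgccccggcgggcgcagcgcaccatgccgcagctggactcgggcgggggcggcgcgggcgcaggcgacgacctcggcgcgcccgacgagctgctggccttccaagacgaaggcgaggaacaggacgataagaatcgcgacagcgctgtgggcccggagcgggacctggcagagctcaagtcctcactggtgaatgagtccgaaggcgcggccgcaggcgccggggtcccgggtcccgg
Rasgef1b (chr5:99252878-99253177, minus strand): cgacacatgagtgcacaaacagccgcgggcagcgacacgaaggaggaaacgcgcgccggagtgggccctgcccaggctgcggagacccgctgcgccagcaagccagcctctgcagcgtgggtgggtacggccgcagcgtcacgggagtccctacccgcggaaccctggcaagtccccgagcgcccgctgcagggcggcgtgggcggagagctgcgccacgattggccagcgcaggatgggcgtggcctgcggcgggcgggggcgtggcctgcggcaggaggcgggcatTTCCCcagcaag
Each window held the core once, at -167, -218 and 39 from the start of the RefSeq entry used. For Ly6c1, Bcl6 and Tcf7 the first of 2 RefSeq entries was used, and the window of the other entry is not shown. In the Tcf7 window an open reading frame begins at an atg upstream of that start and runs to the last base. The match at -218 in Tcf7 therefore need not lie upstream of the whole gene.

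In the list of 25 naive and central T cell genes, 2 were called above 0 (Ly6c1 and Bcl2) and 2 below 0 (Tcf7 and Cd27). Over all tested genes 0.451% were called above 0 and 0.661% below. The median of the list was -0.16 (-0.08 without the second library of stimulated WT and -0.27 without the second of stimulated cKO). Cd27, a costimulatory receptor, rose in WT from 101, 84.5 and 103 to 148, 150.3 and 150.3 and stood at 79.2, 69.8 and 83.0 and 62.6, 80.3 and 58.9 in cKO (-0.85, adjusted p 0.0488, up to 0.138 without cKO ex vivo 3 and called in 2 of 12 leave-one-out fits). Stimulation lowered 15 and raised 2 of the list in WT, where it lowered 19.3% and raised 12.7% of all tested genes. In cKO it lowered 19 and raised 0 of the list, against 26.5% and 17.3%. Lmo4, a LIM domain cofactor, rose 3.70-fold in WT and 1.73-fold in cKO (-1.03, adjusted p 0.0471, up to 0.128 without cKO ex vivo 1 and called in 1 of 12 leave-one-out fits).

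Cxcr3 and Itgb1, receptors for migration and adhesion, had interactions below 0. Cxcr3, the receptor of interferon-induced chemokines, stood at 32.7, 35.2 and 31.9 in WT ex vivo and 34.0, 33.2 and 39.3 after stimulation. In cKO it was at 62.2, 69.2 and 71.7 ex vivo, above all other libraries, and at 35.9, 43.3 and 38.7 after stimulation (-0.86, adjusted p 0.0165, up to 0.0600 without cKO ex vivo 3 and called in 9 of 12 leave-one-out fits). Itgb1, integrin beta 1, fell from 94.8, 91.8 and 108 to 71.3, 74.8 and 78.4 in WT and from 168, 144 and 169.8 to 66.2, 69.9 and 66.1 in cKO (-0.85, adjusted p 0.0135). These were the 2 calls among 25 chemokine receptor and homing genes (median -0.35), where 1.11% of all tested genes were called. Among 12 coinhibitory receptors 1 was called, Klrg1, a marker of short-lived effector cells (-0.67, adjusted p 0.0464, up to 0.128 without cKO ex vivo 1, called in 1 of 12 leave-one-out fits and not called with voom), and Pdcd1, the gene of PD-1, rose in both genotypes (3.17 in WT and 2.46 in cKO) with an interaction of -0.71 (adjusted p 0.0826).

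The larger falls in cKO also took in Ahnak, a giant scaffold protein of calcium signalling, from 108, 96.0 and 87.5 to 41.7, 49.1 and 44.3 in WT and from 214, 173 and 237 to 39.6, 44.5 and 42.2 in cKO (-1.17, adjusted p 0.0132). Here again the genotypes differed ex vivo without overlap and overlapped after stimulation. Trp53inp1, a p53 target, and Fam46c, a cytoplasmic poly(A) polymerase, had interactions of -1.18 and -1.11 (adjusted p 0.0132 and 0.0121). Fam110a and Lpin1, a phosphatidate phosphatase of lipid synthesis, had -1.08 and -0.96 (adjusted p 0.0121 and 0.0135). All 5 of these genes were called in each of the 12 leave-one-out fits. Abcg1, the cholesterol exporter, fell to 0.337 of its ex vivo mean in WT and to 0.200 in cKO (-0.71, adjusted p 0.0161, up to 0.0600 without cKO ex vivo 3 and called in 7 of 12 leave-one-out fits), and Slc38a1, a glutamine transporter, fell in cKO alone (-0.74, adjusted p 0.0446, up to 0.125 without cKO ex vivo 1 and called in 2 of 12 leave-one-out fits). Slc5a3, the inositol transporter, rose less in cKO (-1.01, adjusted p 0.0342, up to 0.102 without cKO ex vivo 3 and called in 2 of 12 leave-one-out fits), and Anxa2, an annexin, rose in WT alone (-1.04, adjusted p 0.0172, up to 0.0554 without WT stimulated 2 and called in 9 of 12 leave-one-out fits).

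For 23 of the called genes the response passed its own test in both genotypes and went in opposite directions, 9 of them falling in WT and rising in cKO and 14 the reverse. The protein-coding genes that fell in WT and rose in cKO were Usp18, Gbp6, Dtx3l, Ppm1j and Myo6. Ppm1j, a protein phosphatase, went from 11.1, 9.24 and 11.8 to 6.88, 7.56 and 8.08 in WT and from 7.74, 9.38 and 6.92 to 21.1, 21.5 and 14.8 in cKO (1.61, adjusted p 0.0121). Myo6, an unconventional myosin, went from 4.40, 5.49 and 4.42 to 3.19, 3.49 and 3.65 and from 4.47, 4.95 and 4.83 to 10.8, 9.44 and 8.74 (1.26, adjusted p 0.0132). In the other direction, Rab11fip1, an adaptor of recycling endosomes, rose in WT from 24.6, 22.3 and 21.9 to 29.4, 33.8 and 30.1 and fell in cKO from 46.8, 37.4 and 41.7 to 25.7, 30.5 and 24.5 (-1.05, adjusted p 0.0132), and so did the long non-coding RNA gene Gm16953 (-1.64, adjusted p 0.0205, up to 0.0705 without cKO ex vivo 1 and called in 8 of 12 leave-one-out fits). The number of such genes was 12 with the TPM as deposited, 58 with quantile normalization and 7 to 35 when 1 library was left out. At the lower end was the fit without the first library of cKO ex vivo, and at the upper end the fit without the second library of stimulated cKO.

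**Figure D4:**
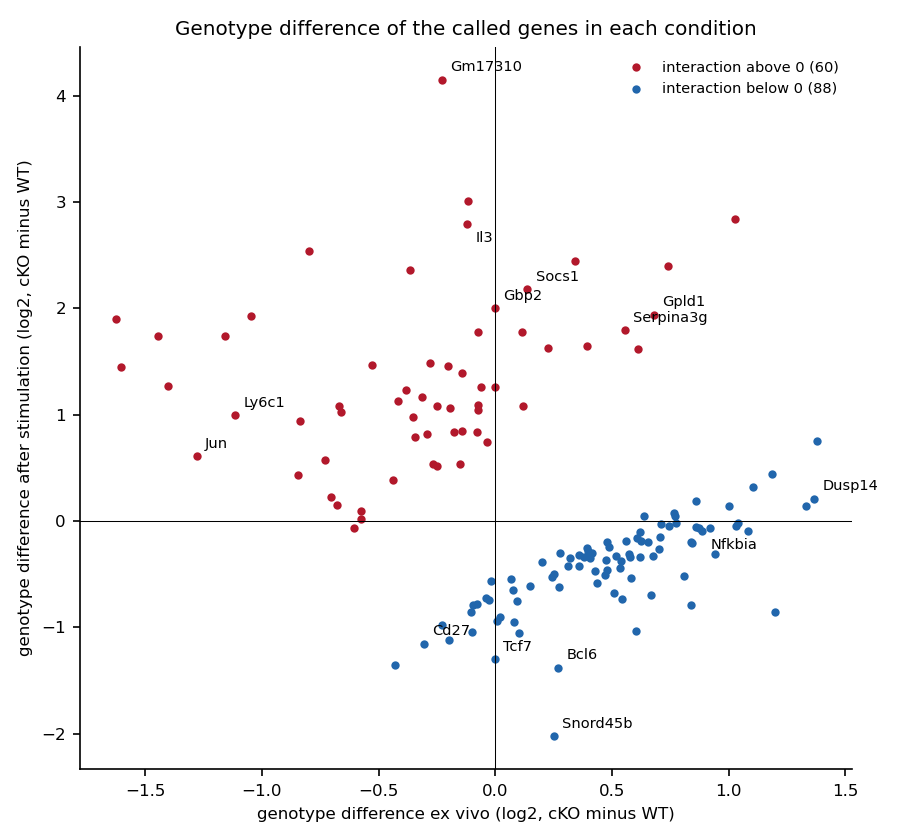
Each point is 1 of the 148 called genes, with the genotype difference ex vivo on the x axis and after stimulation on the y axis (both log2, cKO minus WT). Of the 60 genes above 0 (red), 48 were lower in cKO ex vivo and higher after stimulation by sign, and of the 88 below 0 (blue), 66 were higher ex vivo and lower after stimulation. Ly6c1 and Jun are examples of the former; Bcl6 lay below 0 after stimulation, with no call ex vivo.

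A reversal of the genotype difference was called in both conditions for 4 genes above 0 and 10 below 0. Across the 88 genes below 0, the median genotype difference was 0.51 ex vivo and -0.35 after stimulation. Across the 60 above 0 it was -0.26 ex vivo and 1.20 after stimulation. These counts and medians, and the counts by sign in the figure, follow in part from the choice of the genes by their interaction. They carry no test.

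Of the 40 function lists, 21 had no gene called in the interaction, among them the cytosolic ribosomal proteins (50 genes), nuclear oxidative phosphorylation (39), ribosome biogenesis (38), proteasome subunits (31), glycolysis (27) and T cell receptor proximal signalling (26). Stimulation lowered 36 of the ribosomal protein genes in WT and 33 in cKO (19.3% and 26.5% of all tested genes). Rps27 was the furthest of them from 0 in the interaction (0.75, adjusted p 0.112). Of the T cell receptor genes 19 of 26 fell in each genotype, against the same 19.3% in WT and 26.5% in cKO. Among these 26 genes Ubash3a, an inhibitor of that receptor, had the largest interaction by size (-0.63, adjusted p 0.0576). KLF family genes had the deepest falls, with medians of -1.39 in WT and -1.51 in cKO, and Klf6 went from 770.1, 773 and 1043 to 62.3, 86.7 and 62.8 in WT and from 388, 329 and 474 to 59.4, 69.9 and 56.6 in cKO (0.94, adjusted p 0.110). All 21 tested ARE-binding and mRNA decay genes had interactions below 0 (median -0.35, and -0.17 without the third library of stimulated cKO), where 45.5% of all tested genes had a value above 0, and 0 were called in limma (6 at an unadjusted p under 0.05, and 0 with voom). Ezh2, the catalytic subunit of Polycomb repressive complex PRC2, rose in cKO alone (1.06, adjusted p 3.52e-04, against 0.11 in WT), and its interaction missed the threshold (0.96, adjusted p 0.0672). The interaction also missed it for Xbp1 (0.91, adjusted p 0.0990), which fell in WT alone, for Il12rb2 (1.31, adjusted p 0.200) and for Ikzf2, the gene of Helios (-0.60, adjusted p 0.182).

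**Figure D5:**
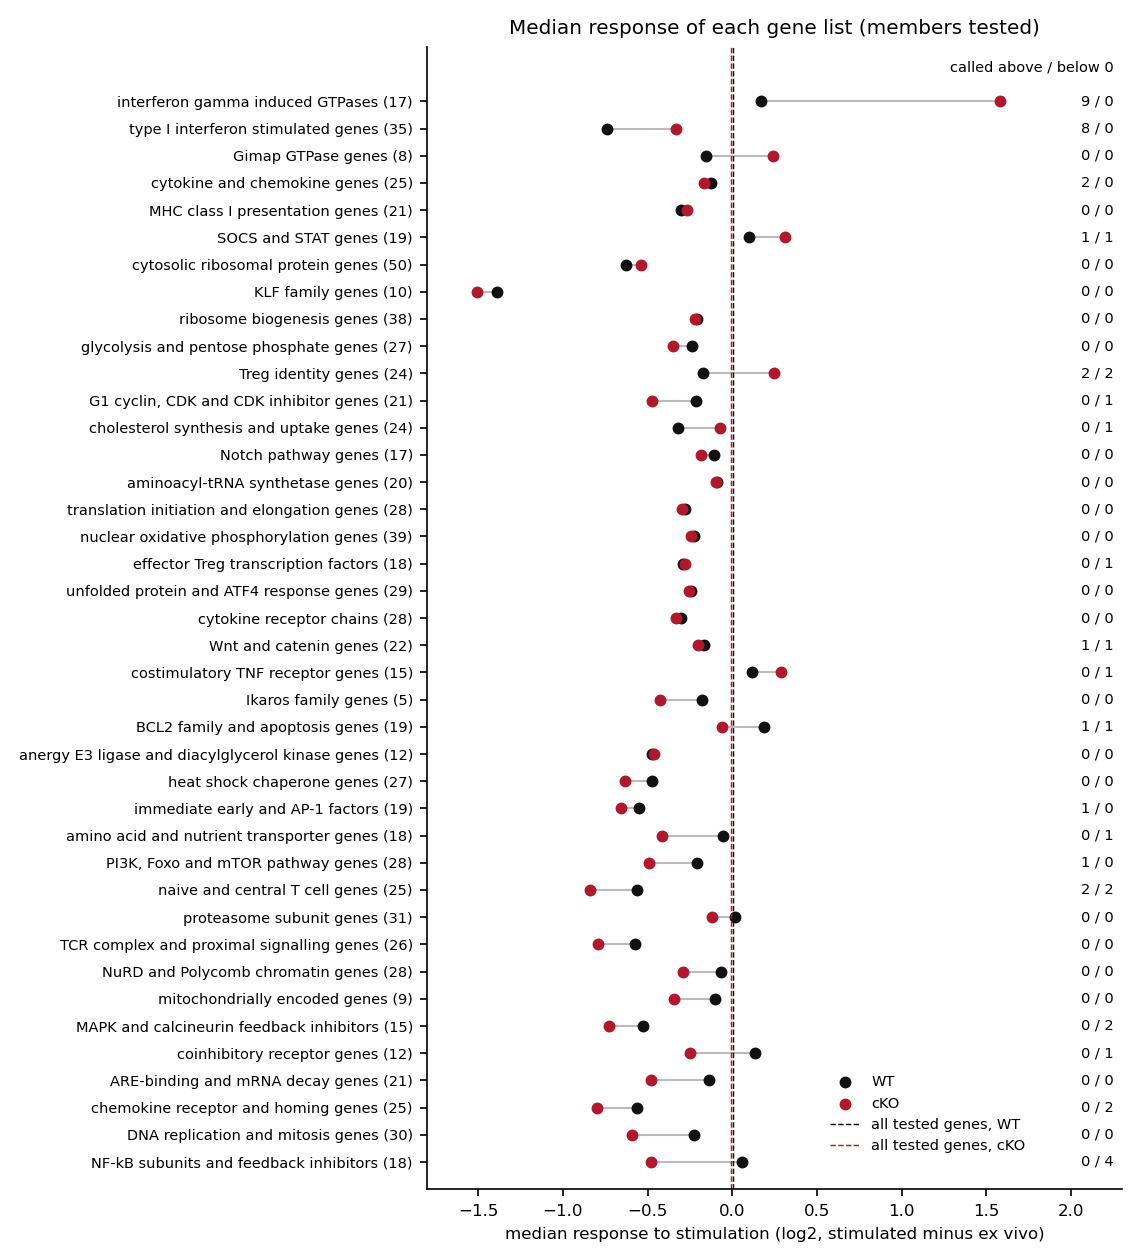
Median response to stimulation of each of 40 gene lists in WT (black) and cKO (red), in log2, ordered by the median interaction, with the number of members tested in brackets and the number called above and below 0 at the right. Dashed lines are the medians of all tested genes. The interferon gamma induced GTPases had 9 calls above 0 and the NF-kB list 4 below 0.

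Gene models of small RNAs (6 of snRNAs and 2 of miRNAs) were among the 12 highest interactions, on few reads. Of U6 snRNA gene models, 7 of 458 tested were called above 0 and 1 below 0 (0.451% and 0.661% of all tested genes). The median interaction of these 458 was 0.52, against -0.04 over all tested genes. It was 0.52 for all 620 snRNA, 0.22 for 531 miRNA and 0.25 for 536 snoRNA gene models, so these classes lay above 0 as a whole. The U6 symbols are shared by many identifiers and the copies are near-identical. Mir1970 was called in all 12 leave-one-out fits. Its gene model had 6.82, 10.8 and 6.42 scaled TPM in WT ex vivo and 2.59, 3.24 and 3.90 after stimulation, and 1.47, 3.10 and 2.35 and 15.3, 14.9 and 9.60 in cKO, on 2 reads or more per library (3.18, adjusted p 0.00859). The reads were counted over the gene and do not measure the mature miRNA, whose sequence is given with its seed, bases 2 to 8, in capitals (RefSeq, GRCm38.p6, chrX:135786174-135786196, minus strand).
mmu-miR-1970: uGUGUCACuggggauaggcuuug
Below 0, Snord45b, a small nucleolar RNA gene, fell in cKO alone (-2.28, adjusted p 0.0132), on 1 read or more per library. Of 56 tested joining segments of the T cell receptor alpha locus, Traj32 and Traj33 were called (-1.28 and -1.63, adjusted p 0.0472 and 0.0132). Over all tested genes 0.661% were called below 0. The median of all 56 segments was -0.82. Traj32 was called in 0 of 12 leave-one-out fits (adjusted p up to 0.128, without cKO ex vivo 1) and Traj33 in 12. With voom the adjusted p was 0.149 for Snord45b, 0.234 for Traj32 and 0.135 for Traj33, and none of these was called.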

How the data were processed

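Treg libraries (12, 3 per group, from individual mice) were compared; whether ex vivo and stimulated libraries share mice is not given in the sources used here. Per the labels and the study's methods, ribosomal RNA was depleted and stranded libraries were sequenced as 51 bp paired ends, aligned to mm9 with STAR 2.6.0c and counted on strand with HTSeq 0.6.1 (Ensembl 67). The authors deposited a signal per gene and library in TPM, which sums to 1000000, and its log2 after adding the worth of 1 read. Of the deposited TPM values 99.9977% were whole numbers of reads (tolerance 0.01 read), which gave the depths above. A deposited table of the authors' own pairwise comparisons (fold changes, p-values) was not used, and 0 columns of sample values lay outside the 12 libraries.

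Genes with a mean of 5 TPM or more in their highest group were kept, rescaled, scaled by TMM (30% of M and 5% of A trimmed) and tested as log2(value + 1) with limma 3.58.1 in R 4.3.3 (lmFit, then eBayes with trend; 4 groups, no covariates, Benjamini-Hochberg adjustment over all tested genes). Fold changes on this scale understate the change of low genes. P-values rest on the spread between libraries of the same group (3 per group), pooled over the 4 groups and drawn by eBayes toward that of other genes. Limma voom on the recovered reads was an alternative. Scripts were tested on simulated data. Figures used Python 3.11.15.

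Members and lists were chosen with earlier results of these data known. Named genes were the 12 highest and 12 lowest called interactions, up to 10 genes with opposite called responses, up to 4 called members of each list or, without a call, its member of largest interaction, and Ikzf1, Il2, Ifng, Tnf, Foxp3, Tcf7 and Bcl6. Some genes that this rule names are not reported here. Other genes, among them up to 25 protein-coding genes per direction, were chosen after their values were seen. Ensembl positions are NCBIM37, which is mm9, and RefSeq sequences are GRCm38.p6. Of 141 called symbols 88 had a promoter window.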

Additional observations from a re-analysis of the deposited data

Results flagged for a closer look

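The stimulation response differed between genotypes, by the test of the interaction itself, for 148 genes, and for 23 of these the response was called in both genotypes with opposite signs. Of the 23, 12 were named by the rule, and 3 of these are snRNA gene models. Of the other 9, those with a fall in WT and a rise in cKO were Mir1970 (3.18), Usp18 (1.75), Gbp6 (1.66), Ppm1j (1.61), Myo6 (1.26) and Dtx3l (0.99), and those with a rise in WT and a fall in cKO were Relb (-0.89), Rab11fip1 (-1.05) and Gm16953 (-1.64), as log2 interactions.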

How the results depend on the processing

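The 28 alternatives (2 of them, protein-coding genes alone and a minimum of 20 recovered reads, chosen after seeing the data) gave each of the 148 genes the same sign, but not the same number of calls; the cause was not tested. Against 148 calls (60 above 0, 88 below 0, 23 opposite), there were 67 (6, 61, 12) with the TPM as deposited, 70 (7, 63, 12) with rescaling and no TMM, 392 (177, 215, 58) with quantile normalization, 336 (180, 156, 46) with a filter of 10 TPM, 330 (173, 157, 36) with protein-coding genes alone, 246 (109, 137, 33) with 20 reads or more, 95 (47, 48) without the trend, and 395 (144, 251, 39) with voom. With a filter of 1 TPM, with no filter and with a replicate block within genotype, 0 genes were called by limma in each direction, and 0 were opposite, with 2403, 2686 and 1547 genes at an unadjusted p under 0.05. Leaving out 1 library gave 50 to 205 calls (24 to 67 above 0, 26 to 151 below 0, 7 to 35 opposite). The lowest total was without the third cKO ex vivo library, and the highest without the second stimulated cKO library. It was also below 100 without the first stimulated cKO (51), the first cKO ex vivo (60), the second, the third and the first stimulated WT (61, 67 and 93) and the third and the second WT ex vivo libraries (66 and 83). Of the 148 genes, 41 were called in all 12 such fits, 6 in 0 of them, and 130 with voom.

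Stimulation in WT called 1943 genes with the TPM as deposited, 1980 without TMM, 1838 at 1 TPM and 1694 without a filter, against 4254, and 3254 to 4387 when 1 library was left out. In cKO the leave-one-out range was 4095 to 5982. Ikzf1 in cKO was 39.96% of WT ex vivo and 33.6% after stimulation with the TPM as deposited.

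Correlations gave no clear pairing of libraries by replicate number, and they cannot tell whether libraries share mice. Correlations of same-numbered libraries ran from -0.21 to 0.26, and 6 of 12 libraries correlated best with their own number. A fit with the replicate block called 65 genes (30 above 0, 35 below 0, 11 opposite). The fit with a replicate block within genotype, the pairing that shared mice would give, called 0.

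Few reads limit the snRNA, miRNA and joining segment values, Il3 and Il2.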
